A study of Mus musculus with 4 samples.

Results

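Loss of Pparg was examined in mouse ureters that were cultured in the vehicle alone, by setting the 2 DMSO pools of Pparg-cKO ureters against the 2 DMSO pools of control ureters, 4 of the 8 RNA pools hybridised in the series. These channels were chosen by their label alone: the DMSO pool was the AlexaFluor555 (green) channel on the replicate 1 arrays and the AlexaFluor647 (red) channel on the replicate 2 arrays. The other 4 pools came from sister cultures with 2 µM purmorphamine, an agonist of sonic hedgehog (SHH) signalling. They entered as partners in the fit that estimated the error, in the choice of genes to test and in an interaction given below. The keratin, Sprr and uroplakin families and the genes under lipid terms were left out of the rule that chose the largest changes, and the account below is mainly of the other genes and functions. Single members of these groups are given where they mark a cell type or stand in another list.

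Ureters were explanted from NMRI mice on postnatal day 0 and kept for 8 days at the air–liquid interface. Control ureters carried the floxed Pparg allele without cre, and Pparg-cKO ureters were Pax2-cre/+; Pparg (fl/fl). The Pax2-cre transgene recombines in the nephric duct and its derivatives, so in the ureter the deletion was restricted to the epithelium, while RNA was taken from the whole organ with muscle, lamina propria and whatever tissue stayed attached. Since every mutant pool and no control pool carried cre, the presence of cre and the loss of Pparg cannot be told apart. Replicate 1 was a male and replicate 2 a female pool of each genotype, so that sex, dye and replicate number form a single split, which both genotypes share. The genotypes never met on one array, and a genotype difference is therefore a difference between channels of different arrays on one slide. The number of ureters in a pool was not given in the sources used here, and p-values measure the spread between pools only.

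PPARG is a nuclear receptor that binds DNA as a partner of RXR proteins and activates genes when a fatty acid-like ligand is bound. It is best known as the master regulator of fat cells, and in the urothelium it is needed for the formation of superficial cells, the luminal cells that carry the uroplakin plaques. SHH is made by the ureteric epithelium and acts on the mesenchyme beneath it through the receptor PTCH1.

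Between 66.3% and 69.3% of spots were well above background in the 4 DMSO pools, and no spot was saturated. Levels are given below as normalised log2 intensities of 1 probe per gene, so that a step of 1 is a doubling. They are compared between pools, and a brightest probe is named for a list without reading it as the most abundant RNA. Xist, which is transcribed in female cells, read 6.12 in both male pools and 12.60 and 12.19 in the female control and Pparg-cKO pools, as the labels have it. In each pair of values given, the male pool comes first. The tissue markers were present in every pool. Smooth muscle genes (Acta2, Tagln, Myh11, Cnn1) had a lowest reading of 14.35 over all pools, genes of the lamina propria and fibroblasts (Aldh1a2, Col1a1, Col3a1, Pdgfra) one of 14.16, and basal cell genes (Trp63, Krt5, Itga6, Itgb4) one of 12.80. None of these 12 genes passed the test in either direction. Of 6 superficial cell markers, 4 were lower in Pparg-cKO pools, among them Krt20 (13.62 and 14.02 in control and 10.03 and 10.21 in Pparg-cKO pools). In bulk RNA, fewer cells of a type and less RNA per cell cannot be told apart, and this holds for each list that follows.

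The Pparg probe itself does not check the genotype, because the recombined allele still makes an mRNA. It read 14.79 and 15.32 in control and 15.55 and 15.58 in Pparg-cKO pools (log2 fold change 0.51 ± 0.17, adjusted p = 0.2). The probe lies at chr6:115440213-115440272 in the mm9 build given in the files. Of the other receptors of the family, Ppara was lower and read 10.64 and 10.98 in control and 9.67 and 9.69 in Pparg-cKO pools (log2 fold change -1.13 ± 0.19, adjusted p = 0.0273). Ppard was also lower (log2 fold change -0.49 ± 0.09, adjusted p = 0.0409, and 0.0993 with the replicate block). The heterodimer partners Rxra (log2 fold change -0.49 ± 0.11, adjusted p = 0.067), Rxrb (0.07) and Rxrg (-0.43) did not pass the test.

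Of 20229 genes tested, 410 (2.03%) were higher and 389 (1.92%) were lower in Pparg-cKO pools at an adjusted p under 0.05, 3.95% in all. All 799 pointed the same way in both sexes, as the plot of the male against the female differences shows. Of all genes tested, 27.1% were higher and 28.3% lower in both pairs, and the groups did not overlap for 21% that were higher and 21.7% that were lower in Pparg-cKO pools. At least a 2-fold difference was seen in 229 of the genes that were higher and in 202 of those that were lower, and at least a 4-fold difference in 66 and 43. With sex and dye as a block the counts were 278 (1.37%) and 237 (1.17%), of which 245 and 214 were also called without it. The rule stated in the study's methods, an intensity above 100 and a 1.5-fold difference in both pairs, picked 399 (1.97%) and 450 (2.22%) genes, and 241 and 264 of these were among the genes called here. Of the limma calls 51.3% were higher, and 32.2% were when the arrays were not normalised to each other, a setting that moved the median of all genes from 0.00 to -0.15 on the log2 scale.

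**Figure D1:**
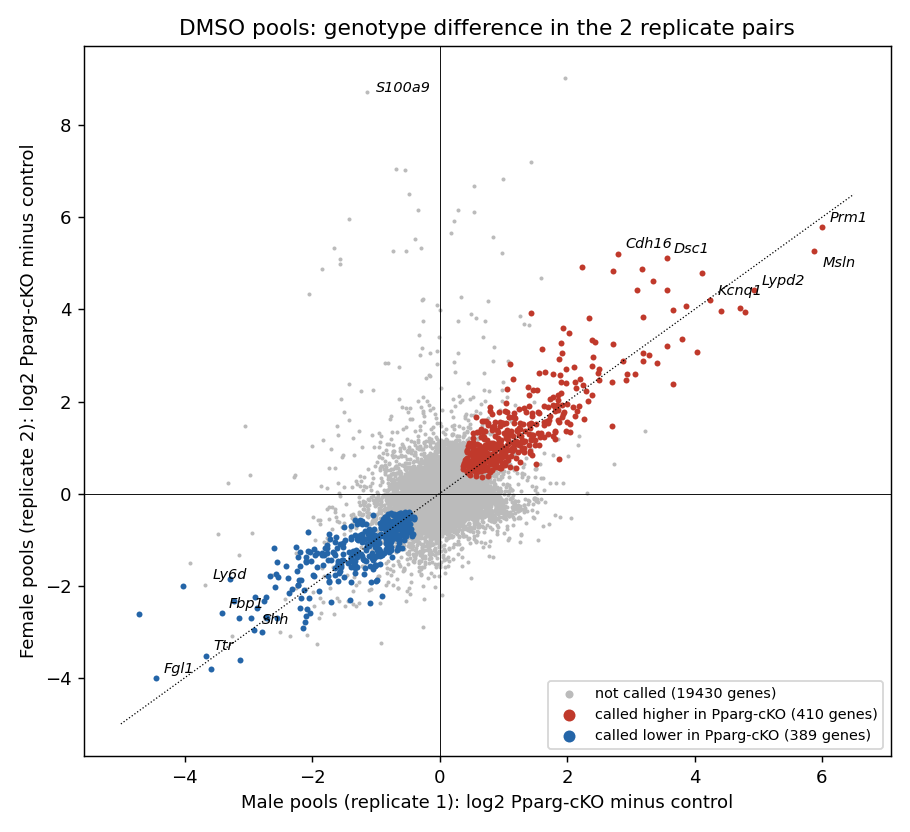
Genotype difference of each of 20229 genes (points) in the male pools (x axis) and the female pools (y axis), both as log2 Pparg-cKO minus control; red and blue mark the 410 genes called higher and the 389 called lower. All called genes lie on the lower left or upper right, whereas genes such as S100a9 were high in the female Pparg-cKO pool only.

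The number of calls depended on single arrays. Without the female control array, 35 genes were higher and 17 lower, and 23 of the 122 called genes singled out by the naming rule kept their call, against 48 without the male control array, 77 without the male and 73 without the female Pparg-cKO array. No gene that was called changed direction in any of these fits. These fits share their pools with the full fit, where all called genes pointed the same way in both pairs. The kept direction is therefore no separate check. The call held in the full fit and after leaving out each array in turn for 30 genes that were higher and 7 that were lower, and all 37 also held with the block. Prm1, Msln, Lypd2, Serpinb11, Kcnq1, Foxi1, Gnat3, Gng13 and Hepacam2 are among the 30, and Cyp4f15, Fbp1 and Defb45 among the 7.

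Among the genes with the largest increases, several encode proteins of the cell surface. Prm1, a protamine that packs DNA in sperm, did not rise above background in control; its probe (chr16:10796450-10796509, mm9) read 6.24 and 6.16 in control and 12.24 and 11.95 in Pparg-cKO pools (at least 50.6-fold higher, adjusted p = 0.00076). Msln encodes mesothelin, a surface glycoprotein of mesothelial cells, and its probe (chr17:25885569-25885628) read 7.99 and 8.10 in control and 13.86 and 13.36 in Pparg-cKO pools (log2 fold change 5.57 ± 0.32, adjusted p = 0.000827). Lypd2, of the Ly6 and uPAR domain family, read 8.77 and 8.71 in control and 13.71 and 13.13 in Pparg-cKO pools (log2 fold change 4.68 ± 0.19, adjusted p = 0.00053). In all 3 genes, chosen for the size of their change, the pools of a genotype lay close to each other and the genotypes far apart.

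Serpinb11, a clade B serpin, read 7.60 and 6.96 in control and 11.71 and 11.74 in Pparg-cKO pools (log2 fold change 4.45 ± 0.31, adjusted p = 0.00144). Gabrp, the pi subunit of the GABA-A receptor, which is a chloride channel, read 7.04 and 7.12 in control and 11.76 and 11.14 in Pparg-cKO pools (log2 fold change 4.37 ± 0.26, adjusted p = 0.000868). Kcnq1, a voltage-gated potassium channel, read 8.94 and 8.62 in control and 13.19 and 12.81 in Pparg-cKO pools (log2 fold change 4.22 ± 0.23, adjusted p = 0.00076). The genes were chosen for the size of their change, and the groups did not overlap for any of them. Of all genes tested, 21% were higher in Pparg-cKO pools without overlap. Dsc1, a desmosomal cadherin of upper epidermis, was below background in control and read 6.48 and 6.36 in control and 10.04 and 11.47 in Pparg-cKO pools (at least 19.3-fold higher, adjusted p = 0.00479); the female mutant pool was the higher one. The same held in control for 1810046K07Rik, an unnamed gene, at 6.09 and 6.11 in control and 10.51 and 10.08 in Pparg-cKO pools (at least 14.5-fold higher, adjusted p = 0.00053).

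A further 3 of the 12 largest increases are genes known from the kidney or from tight junctions. Pdzk1, a scaffold for transporters of the brush border, read 8.16 and 6.96 in control and 11.73 and 11.39 in Pparg-cKO pools (log2 fold change 4.0 ± 0.40, adjusted p = 0.00489). Cldn3, a claudin of tight junctions, read 8.62 and 6.87 in control and 11.80 and 11.74 in Pparg-cKO pools (log2 fold change 4.03 ± 0.53, adjusted p = 0.0108). Cdh16, known as kidney-specific cadherin, read 10.18 and 7.57 in control and 12.98 and 12.77 in Pparg-cKO pools (log2 fold change 4.0 ± 0.74, adjusted p = 0.0363, and 0.0532 with the replicate block). For Pdzk1, Cldn3 and Cdh16 the male control pool was above the female one and most clearly so for Cdh16, while the mutant pools lay close together.

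**Figure D2:**
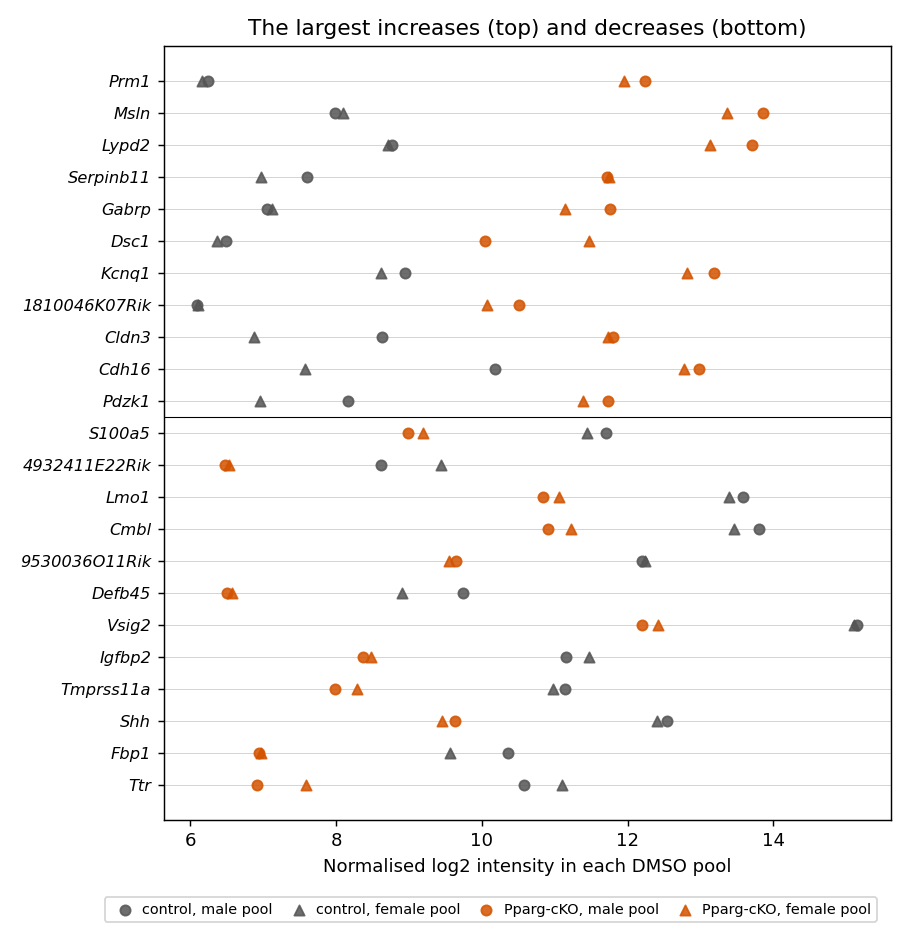
Normalised log2 intensity (x axis) of 11 of the 12 genes with the largest increase and of the 12 with the largest decrease outside the families left out (y axis), 1 point for each DMSO pool. Grey points are control and orange points Pparg-cKO pools, circles male and triangles female; the 23 genes were chosen for the size of their change, and the control pools lie farthest apart for Cdh16.

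Outside the families and lipid terms left out, the largest decreases were smaller than the largest increases. Among the genes left out, Krt20 (log2 fold change -3.70), Fgl1 (-4.23) and Bpifb1 (-3.66) had larger decreases than Ttr, and Cyp4f15 (-3.37) a larger one than Fbp1. Ttr, the carrier of thyroxine and of retinol-binding protein, read 10.58 and 11.11 in control and 6.91 and 7.59 in Pparg-cKO pools (log2 fold change -3.59 ± 0.47, adjusted p = 0.0106). Fbp1, the fructose-bisphosphatase of gluconeogenesis, read 10.36 and 9.56 in control and 6.94 and 6.97 in Pparg-cKO pools (log2 fold change -3.01 ± 0.30, adjusted p = 0.0048). Shh, probed at chr5:28783983-28784042 (mm9), read 12.54 and 12.41 in control and 9.64 and 9.46 in Pparg-cKO pools (log2 fold change -2.93 ± 0.23, adjusted p = 0.00231). The pools of each genotype lay close together for Shh, while the control pools of Fbp1 and the mutant pools of Ttr were farther apart. The genotypes did not overlap for any of the 3 genes, which were chosen for the size of their change. Of all genes tested, 21.7% were lower in Pparg-cKO pools without overlap.

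Tmprss11a, a serine protease anchored in the membrane, read 11.14 and 10.98 in control and 7.99 and 8.29 in Pparg-cKO pools (log2 fold change -2.92 ± 0.27, adjusted p = 0.0039). Igfbp2, a binding protein for insulin-like growth factors, read 11.16 and 11.47 in control and 8.37 and 8.47 in Pparg-cKO pools (log2 fold change -2.89 ± 0.26, adjusted p = 0.00378). Vsig2, an immunoglobulin domain protein, read 15.16 and 15.11 in control and 12.19 and 12.41 in Pparg-cKO pools (log2 fold change -2.83 ± 0.23, adjusted p = 0.00265). The beta-defensin gene Defb45 read 9.74 and 8.91 in control and 6.51 and 6.57 in Pparg-cKO pools (log2 fold change -2.78 ± 0.30, adjusted p = 0.0055) and was well above background in 1 of the 2 mutant pools. Cmbl, a hydrolase, gave a log2 fold change of -2.57 ± 0.35, Lmo1, a LIM-only nuclear protein, one of -2.54 ± 0.44, and the calcium-binding S100a5 one of -2.49 ± 0.27. The unnamed gene 9530036O11Rik (-2.63 ± 0.20) and 4932411E22Rik (-2.53 ± 0.32), which RefSeq lists as Ankfn1 and which was above background in 1 of the 2 mutant pools, complete the set.

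Of the hedgehog genes, ligands alone passed the test. Ihh, a second ligand of the pathway, was above background in 1 of the 2 control pools and read 6.45 and 6.59 in control and 7.90 and 7.86 in Pparg-cKO pools (log2 fold change 1.36 ± 0.10, adjusted p = 0.00226), opposite to Shh. None of 14 receptors and transducers and none of 13 tested target and feedback genes passed the test. Ptch1, which encodes the receptor and is itself induced by the pathway, read 9.37 and 9.40 in control and 8.54 and 8.83 in Pparg-cKO pools (log2 fold change -0.70 ± 0.16, adjusted p = 0.0746). The forkhead gene Foxl1 read 10.76 and 10.85 in control and 9.92 and 10.26 in Pparg-cKO pools (log2 fold change -0.71 ± 0.17, adjusted p = 0.0778), while Hhip (log2 fold change -0.38 ± 0.25, adjusted p = 0.553), an inhibitor that binds the ligand, and Gli1 (log2 fold change -0.02 ± 0.23, adjusted p = 0.983), a transcriptional effector, differed less between the genotypes than between the 2 control pools. The median of the target genes was -0.32 (male pair -0.09, female pair -0.42), against 0.00 over all genes tested, and 8 of the 13 were lower in both pairs, as were 28.3% of all genes.

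Genes of superficial cells other than the uroplakins formed the list with the largest share of lower members: 15 of 22 tested were called lower and none higher, with a median log2 fold change of -1.34 (male pair -1.23, female pair -1.41). The list comes from the study's own work on Pparg-cKO ureters and is not independent evidence of its direction. Hsd17b2, which inactivates oestradiol and testosterone, read 10.72 and 11.11 in control and 8.63 and 8.46 in Pparg-cKO pools (log2 fold change -2.37 ± 0.29, adjusted p = 0.0088). Slc47a1, an exporter of organic cations, read 9.78 and 9.79 in control and 7.58 and 7.31 in Pparg-cKO pools (log2 fold change -2.34 ± 0.31, adjusted p = 0.0117). Aqp3, a channel for water and glycerol, read 15.40 and 15.62 in control and 13.81 and 14.11 in Pparg-cKO pools (log2 fold change -1.55 ± 0.22, adjusted p = 0.0139). Sptssb and Fa2h, both of sphingolipid synthesis, gave log2 fold changes of -2.70 ± 0.30 and -2.68 ± 0.22. Ly6d, a small surface protein, read 15.89 and 15.76 in control and 12.22 and 13.78 in Pparg-cKO pools (log2 fold change -2.83 ± 0.58, adjusted p = 0.0508). It did not pass the test, and the male mutant pool was the lower one.

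Vesicle traffic genes were lower in part. Of 26 tested, 5 were called lower and 2 higher. Rab27b, a GTPase of secretory vesicles, read 13.66 and 13.93 in control and 12.59 and 12.54 in Pparg-cKO pools (log2 fold change -1.23 ± 0.25, adjusted p = 0.0479). Its effector Sytl2 read 11.42 and 11.40 in control and 9.78 and 9.79 in Pparg-cKO pools (log2 fold change -1.63 ± 0.19, adjusted p = 0.00699). The sorting nexin Snx31, which is found with uroplakins in late endosomes, read 9.87 and 9.95 in control and 8.57 and 8.35 in Pparg-cKO pools (log2 fold change -1.45 ± 0.27, adjusted p = 0.0363). The epithelial GTPase Rab17 was higher at 7.57 and 7.49 in control and 9.44 and 9.04 in Pparg-cKO pools (log2 fold change 1.71 ± 0.18, adjusted p = 0.0053), and so was Mal2 (0.73 ± 0.15, adjusted p = 0.106 with the replicate block). With the replicate block 3 of the 26 were lower and 1 higher. Rab11a, Rab8a, Vps33a and Exoc5, which serve traffic in most cells, gave -0.14, 0.13, -0.04 and 0.08 as log2 fold changes.

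Among 23 urothelial transcription factors tested, 2 were called lower and 1 higher. Sp6 read 9.51 and 9.45 in control and 7.74 and 8.27 in Pparg-cKO pools (log2 fold change -1.48 ± 0.21, adjusted p = 0.0152). Cebpa, which acts beside PPARG in fat cells, read 12.38 and 12.31 in control and 11.31 and 11.38 in Pparg-cKO pools (log2 fold change -1.0 ± 0.13, adjusted p = 0.0118). Elf5, an ETS factor, was higher at 8.95 and 8.77 in control and 10.03 and 10.44 in Pparg-cKO pools (log2 fold change 1.38 ± 0.17, adjusted p = 0.00888). Foxa1 (-0.13), Gata3 (0.19), Klf5 (-0.01) and Elf3 (-0.05) were near 0, and Grhl3, a regulator of superficial cells, gave log2 fold change -0.68 ± 0.18, adjusted p = 0.11.

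Surface and protease families split within themselves. Of 24 Ly6 and uPAR domain genes, 4 were called higher, Lypd2 first and then Slurp1 (at least 3.28-fold), Ly6g6d (1.15 ± 0.17) and Ly6g6e (0.92 ± 0.12, adjusted p = 0.0565 with the replicate block). Ly6k was lower at 11.84 and 11.08 in control and 9.74 and 9.61 in Pparg-cKO pools (log2 fold change -1.78 ± 0.30, adjusted p = 0.0264). Of 13 membrane serine proteases, Tmprss11a and Tmprss13 (-0.51 ± 0.09, adjusted p = 0.0747 with the replicate block) were lower. Hepsin, Hpn, was higher (9.79 and 9.33 in control and 11.57 and 11.24 in Pparg-cKO pools, log2 fold change 1.85 ± 0.19, adjusted p = 0.00538). Of 7 gasdermins, Gsdmc, of a pore-forming family, was lower at 15.65 and 15.53 in control and 14.36 and 14.54 in Pparg-cKO pools (log2 fold change -1.14 ± 0.22, adjusted p = 0.0421), while Gsdmc3 (-0.82 ± 0.27) passed the test only with the replicate block (adjusted p = 0.0413) and Gsdmc4 (-0.92 ± 0.21) in neither fit. Probes of near-identical family members, such as the Gsdmc, Ces, Cyp4a12, Ly6 and Serpinb genes, may share signal.

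Of 16 clade B serpins, Serpinb11 and Serpinb10 were higher and none was lower. Serpinb10 was above background in 1 of the 2 control pools and read 6.87 and 6.30 in control and 9.27 and 9.63 in Pparg-cKO pools (log2 fold change 2.86 ± 0.24, adjusted p = 0.00278). Serpinb5 (0.14) and Serpinb6a (0.06) were near 0.

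Enzymes of gluconeogenesis and pyruvate metabolism were in part lower: 7 of 24 were called lower and none higher. Their median was -0.65 (male pair -0.64, female pair -0.53), and 19 of 24 were lower in both pairs, as were 28.3% of all genes. Besides Fbp1, the muscle-type Fbp2 read 9.71 and 9.40 in control and 7.34 and 7.57 in Pparg-cKO pools (log2 fold change -2.10 ± 0.30, adjusted p = 0.014). The alanine aminotransferase Gpt read 12.55 and 12.47 in control and 10.33 and 10.48 in Pparg-cKO pools (log2 fold change -2.10 ± 0.20, adjusted p = 0.00394). Pdk4, a kinase that shuts pyruvate dehydrogenase, read 11.21 and 11.32 in control and 9.66 and 9.72 in Pparg-cKO pools (log2 fold change -1.58 ± 0.16, adjusted p = 0.00482). Pck1, the committed enzyme, read 12.25 and 12.74 in control and 8.99 and 9.65 in Pparg-cKO pools (log2 fold change -3.18 ± 1.22, adjusted p = 0.269). Pyruvate carboxylase, Pcx, read 13.64 and 14.18 in control and 11.77 and 11.91 in Pparg-cKO pools (log2 fold change -2.07 ± 0.49, adjusted p = 0.0756). Neither passed the test. Both enzymes also serve glycerol synthesis in fat cells. Of 20 glycolysis genes none passed the test (limma, with 0 above and 1 below 0 at an unadjusted p under 0.05), and the median was -0.02.

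Of 48 conjugating enzymes, esterases and aldehyde dehydrogenases, 11 were called lower and 1 higher, with a median of -0.59 (male pair -0.55, female pair -0.52). With the replicate block 6 were lower. Aldh1a7 read 13.87 and 13.75 in control and 11.68 and 12.18 in Pparg-cKO pools (log2 fold change -1.88 ± 0.27, adjusted p = 0.0139). The carboxylesterase Ces2b read 10.53 and 10.09 in control and 8.50 and 8.82 in Pparg-cKO pools (log2 fold change -1.65 ± 0.24, adjusted p = 0.0153), and Aldh3b3 gave -1.53 ± 0.23. The exception was the sulfotransferase Sult1c2, which was above background in 1 of the 2 control pools and read 6.52 and 6.17 in control and 9.40 and 9.05 in Pparg-cKO pools (log2 fold change 2.88 ± 0.16, adjusted p = 0.00076). Of 29 enzymes of amino acid and one-carbon metabolism, 7 were lower and 1 higher, with a median of -0.46 (male pair -0.44, female pair -0.59). Pm20d1, which makes N-acyl amino acids, was not above background in mutant pools (9.18 and 9.14 in control and 6.46 and 6.46 in Pparg-cKO pools, at least 6.44-fold lower, adjusted p = 0.00514). Nat8l, which makes N-acetylaspartate, gave -1.57 ± 0.25, and Gldc, of the glycine cleavage system, -1.34 ± 0.17. The diamine oxidase Aoc1 was higher (8.93 and 7.33 in control and 10.36 and 11.26 in Pparg-cKO pools, log2 fold change 2.68 ± 0.51, adjusted p = 0.0393, and 0.124 with the replicate block).

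Of 26 cytochrome P450 genes, Cyp4f15 was lower at 11.004 and 11.61 in control and 7.88 and 8.0 in Pparg-cKO pools (log2 fold change -3.37 ± 0.24, adjusted p = 0.00166), and 3 were higher: Cyp4b1 (1.01 ± 0.21, adjusted p = 0.0989 with the replicate block), Cyp4a12a (at least 1.58-fold) and Cyp4a12b (at least 1.66-fold, adjusted p = 0.0587 with the replicate block). The list's median was 0.03. Of 21 retinoid genes, Rbp4, the plasma carrier of retinol, was lower (14.95 and 15.12 in control and 13.91 and 14.05 in Pparg-cKO pools, log2 fold change -1.05 ± 0.11, adjusted p = 0.0055). Aldh1a2 (-0.37 ± 0.15), the retinoic acid-making enzyme of the lamina propria, passed the test in neither fit, and Stra6 (1.73 ± 0.53), the receptor for RBP4, only with the replicate block (adjusted p = 0.0228). None of 39 subunits of respiratory complexes I and IV passed it (limma, with 0 above and 1 below 0 at an unadjusted p under 0.05), and their median was -0.08. Cox8b, a subunit of muscle and brown fat, stood apart at 14.48 and 14.74 in control and 12.59 and 12.04 in Pparg-cKO pools (log2 fold change -2.30 ± 0.62, adjusted p = 0.115).

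Of 29 genes tested for plasma and acute phase proteins, best known as products of the liver, 7 were called lower and 1 higher. Their median was -0.62 (male pair -0.79, female pair -0.66), and 23 were lower in both pairs, as were 28.3% of all genes. With the replicate block 3 of the 29 were lower. Fgl1, a fibrinogen-like protein probed at chr8:42276846-42276905 (mm9), read 13.35 and 12.56 in control and 8.90 and 8.55 in Pparg-cKO pools (log2 fold change -4.23 ± 0.51, adjusted p = 0.00831), and its decrease was the largest of all genes tested that passed the test. Beside Ttr and Rbp4, Lrg1 (-2.02 ± 0.35, adjusted p = 0.0777 with the replicate block) and Itih4 (-1.29 ± 0.24, adjusted p = 0.0923 with the replicate block) were lower. Orm1, an orosomucoid, read 10.02 and 10.13 in control and 7.93 and 8.06 in Pparg-cKO pools (log2 fold change -2.08 ± 0.64, adjusted p = 0.164). Haptoglobin, Hp, read 16.26 and 16.40 in control and 14.51 and 15.38 in Pparg-cKO pools (log2 fold change -1.39 ± 0.39, adjusted p = 0.134). Itih2 was the 1 called higher (9.82 and 9.76 in control and 10.94 and 10.58 in Pparg-cKO pools, log2 fold change 0.97 ± 0.15, adjusted p = 0.021), and Alb, Apoa1 and Ambp, the defining products of hepatocytes, were not above background and not tested.

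**Figure D3:**
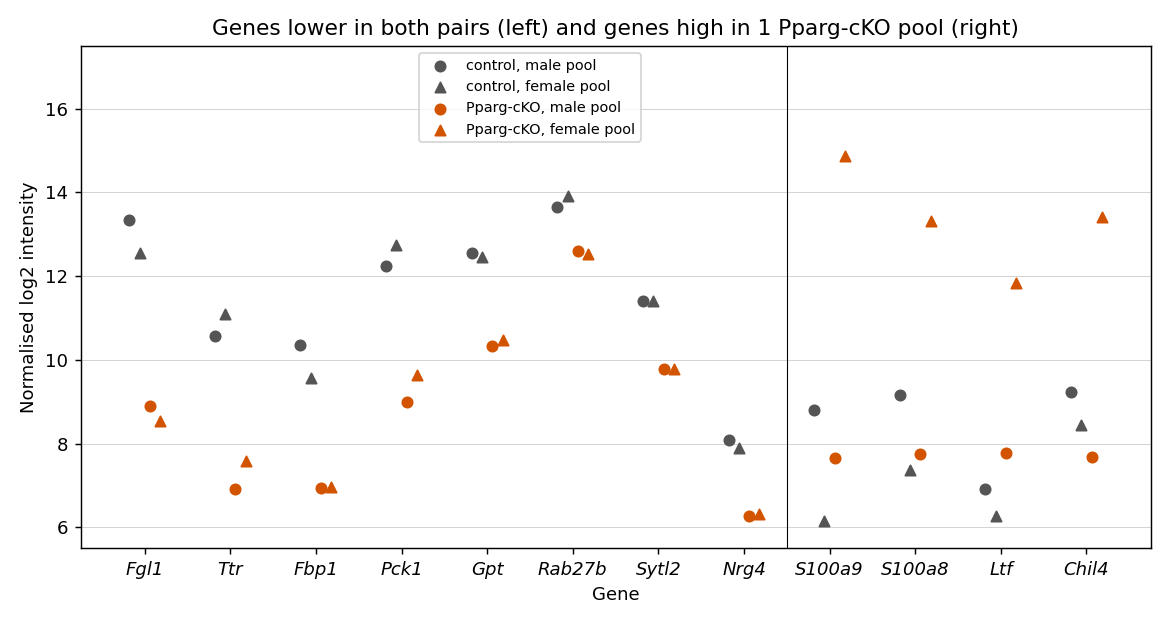
Normalised log2 intensity (y axis) of 12 genes (x axis) in each DMSO pool, grey for control and orange for Pparg-cKO, circles male and triangles female. The genes were picked for these patterns. On the left the mutant pools lie below both control pools for each gene. On the right the female mutant pool alone is high, S100a9 reaching 14.87 against 7.66 in the male mutant pool.

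Genes of tuft cells, a rare chemosensory epithelial cell that uses taste-type signalling, formed one of the clearest groups. Of 32 tested, 14 were called higher and none lower, and 22 were higher in both pairs, as were 27.1% of all genes. The median was 0.61 (male pair 0.60, female pair 0.62). The taste transduction chain was included. Gng13, a G protein gamma subunit, was below background in control and read 6.34 and 6.33 in control and 10.15 and 9.69 in Pparg-cKO pools (at least 11.2-fold higher, adjusted p = 0.000675). Gnat3, gustducin, was above background in 1 control pool and read 6.46 and 6.36 in control and 9.75 and 9.37 in Pparg-cKO pools (log2 fold change 3.15 ± 0.17, adjusted p = 0.00076). The beta subunit Gnb3 read 6.56 and 6.72 in control and 9.64 and 9.32 in Pparg-cKO pools (log2 fold change 2.83 ± 0.22, adjusted p = 0.00226). The cation channel Trpm5 read 7.54 and 7.79 in control and 8.95 and 8.66 in Pparg-cKO pools (log2 fold change 1.15 ± 0.14, adjusted p = 0.00799).

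Pou2f3, the transcription factor that tuft cells depend on, read 6.90 and 6.88 in control and 8.34 and 8.41 in Pparg-cKO pools (log2 fold change 1.48 ± 0.13, adjusted p = 0.00359). Rgs13 read 8.93 and 8.37 in control and 11.87 and 10.96 in Pparg-cKO pools (log2 fold change 2.77 ± 0.33, adjusted p = 0.00787). Avil read 7.29 and 6.84 in control and 9.50 and 9.32 in Pparg-cKO pools (log2 fold change 2.35 ± 0.19, adjusted p = 0.00233). Hepacam2, which is also in the intercalated cell list below, read 6.20 and 6.19 in control and 9.38 and 9.08 in Pparg-cKO pools (at least 6.95-fold higher, adjusted p = 0.00053). Among the members that did not pass the test, Dclk1 gave 0.21 ± 0.24, Ptgs1 0.34 ± 0.20 and Alox5 -0.04 ± 0.34. The summed intensity of the list, on the log2 scale, was 16.08 and 15.74 in control and 16.27 and 16.39 in Pparg-cKO pools, and Ptgs1 gave the brightest probe. Il25, the cytokine tuft cells release in the gut, read 6.91 and 6.83 in control and 6.68 and 6.60 in Pparg-cKO pools (log2 fold change -0.23 ± 0.10, adjusted p = 0.326).

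Kidney genes were called higher in each segment list. The counts depend on the background filter. Some members, such as Kcnj1, were above background in neither control DMSO pool, and listed genes that were dim in every group were not tested. Of the listed genes, 14 of 19 were tested for the proximal tubule and 12 of 18 for the loop and distal tubule. Of 10 podocyte genes 5 were called higher, of 14 proximal tubule genes 3, of 12 genes of the loop of Henle and distal tubule 4, of 16 collecting duct principal cell genes 7, and of 16 intercalated cell genes 4. The only called decrease in these 5 lists was that of Aqp3. Some genes stand in 2 lists. The medians were 0.85 (male pair 0.85, female pair 0.72) for podocytes, 0.35 (male pair 0.02, female pair 0.77) for the proximal tubule, 0.63 (male pair 0.55, female pair 0.77) for the loop and distal tubule, 0.68 (male pair 0.61, female pair 0.67) for principal cells and 0.49 (male pair 0.26, female pair 0.77) for intercalated cells. With genes that were below background in a whole genotype set at their bound, the podocyte median was 0.73 and that of intercalated cells 0.46.

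Foxi1, the transcription factor that makes intercalated cells, read 6.63 and 6.76 in control and 10.20 and 9.96 in Pparg-cKO pools (log2 fold change 3.38 ± 0.13, adjusted p = 0.00053). Fxyd4, a regulator of the sodium pump in the collecting duct, read 11.54 and 10.06 in control and 13.45 and 13.33 in Pparg-cKO pools (log2 fold change 2.59 ± 0.44, adjusted p = 0.0281). The urea transporter Slc14a2 read 7.21 and 7.03 in control and 9.11 and 9.46 in Pparg-cKO pools (log2 fold change 2.16 ± 0.16, adjusted p = 0.00202). The potassium channel Kcnj16 read 8.30 and 7.70 in control and 9.85 and 10.32 in Pparg-cKO pools (log2 fold change 2.09 ± 0.23, adjusted p = 0.00581). Of the podocyte genes, Podxl read 9.18 and 8.66 in control and 10.36 and 10.29 in Pparg-cKO pools (log2 fold change 1.41 ± 0.16, adjusted p = 0.00732) and Npnt (1.84 ± 0.12) and Clic5 (2.43 ± 0.25) were higher. In the proximal tubule list, Dpp4, a brush border peptidase, was above background in 1 of the 2 control pools and read 7.92 and 6.56 in control and 9.85 and 9.61 in Pparg-cKO pools (log2 fold change 2.48 ± 0.39, adjusted p = 0.0203), and Fut9 (1.12 ± 0.18, adjusted p = 0.0699 with the replicate block) was higher. Umod, uromodulin, was above background in 1 control pool and read 7.14 and 6.07 in control and 8.75 and 9.21 in Pparg-cKO pools (log2 fold change 2.37 ± 0.33, adjusted p = 0.0132, and 0.0684 with the replicate block), and the cotransporter Slc12a1 was at least 2.33-fold higher, adjusted p = 0.00292.

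Several defining genes of mature kidney segments were not above background or did not pass the test. Aqp2, the vasopressin-sensitive water channel of principal cells, read 7.25 and 7.21 in control and 7.10 and 7.15 in Pparg-cKO pools (log2 fold change -0.10 ± 0.08, adjusted p = 0.669). Slc34a1 of the proximal tubule read 7.39 and 6.45 in control and 6.68 and 6.72 in Pparg-cKO pools. Slc4a1 of intercalated cells read 6.59 and 6.56 in control and 6.61 and 6.64 in Pparg-cKO pools. Slc12a3, Calb1, Slc22a6 and Slc5a12 were not tested because they were not above background. Summed over the list, podocyte genes gave 13.94 and 13.75 in control and 14.43 and 14.37 in Pparg-cKO pools. Those of the loop and distal tubule gave 12.63 and 12.12 in control and 13.76 and 13.53 in Pparg-cKO pools. Principal cell genes gave 16.06 and 16.24 in control and 15.94 and 15.99 in Pparg-cKO pools with Aqp3 as the brightest probe. Intercalated cell genes gave 15.37 and 14.85 in control and 15.31 and 15.14 in Pparg-cKO pools. Whether kidney tissue carried along in dissection had a part in these values was not tested. Tmem27, a proximal tubule gene, read 9.52 and 6.44 in control and 10.23 and 10.18 in Pparg-cKO pools (log2 fold change 2.23 ± 0.84, adjusted p = 0.263), lowest in the female control pool.

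Transcription factors of the developing kidney were higher in 5 of 23 cases and lower in none. Foxi1, already given in the intercalated cell list, is 1 of the 5 and had the largest change. In both pairs 20 of the 23 were higher, as were 27.1% of all genes. Their median was 0.62 (male pair 0.52, female pair 0.61). Pax8, of the nephric lineage, read 9.46 and 8.95 in control and 11.76 and 11.17 in Pparg-cKO pools (log2 fold change 2.26 ± 0.30, adjusted p = 0.0117). Six2, of nephron progenitors, read 10.97 and 10.68 in control and 12.75 and 12.79 in Pparg-cKO pools (log2 fold change 1.94 ± 0.21, adjusted p = 0.00598), and Osr2 and Dach2 were higher by 1.07 and 1.01. Cited1 (log2 fold change -0.37 ± 0.37, adjusted p = 0.744), another progenitor gene, did not pass the test.

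**Figure D4:**
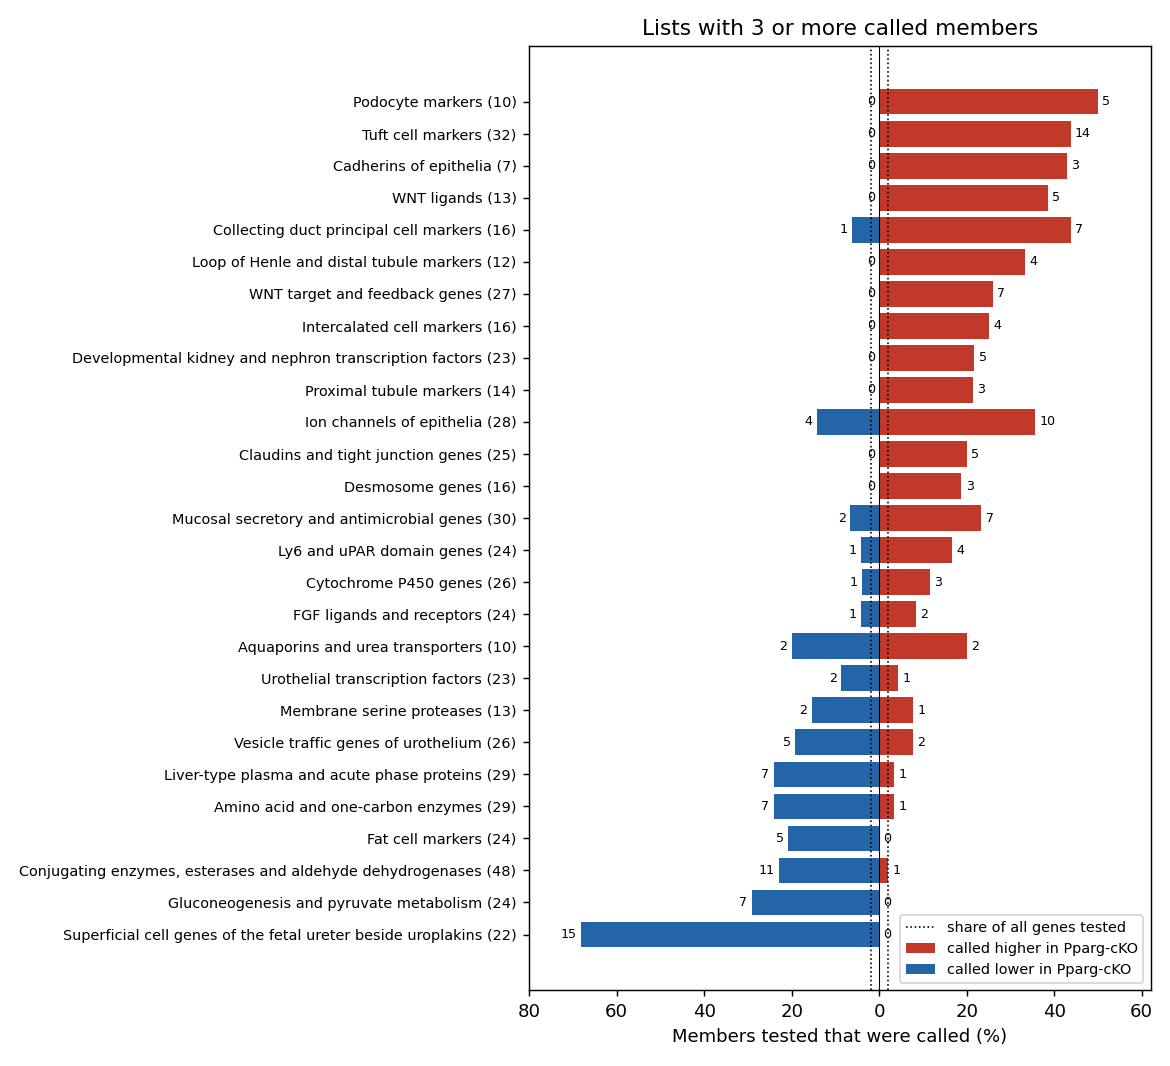
Percentage of the tested members of each gene list (y axis, number tested in parentheses) that were called higher (red, to the right) or lower (blue, to the left) in Pparg-cKO DMSO pools, for the lists with 3 or more called members; digits give the numbers called. Dotted lines mark 2.03% and 1.92%, the shares of all genes tested; 15 of 22 superficial cell genes were lower and 14 of 32 tuft cell genes higher.

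Ion channels gave 10 higher and 4 lower members of 28. Lrrc26, the partner of the large-conductance potassium channel in secretory epithelia, read 9.05 and 8.68 in control and 12.92 and 12.76 in Pparg-cKO pools (log2 fold change 3.97 ± 0.23, adjusted p = 0.000868). The intracellular chloride channel gene Clic3 read 7.02 and 6.94 in control and 10.20 and 10.77 in Pparg-cKO pools (log2 fold change 3.51 ± 0.19, adjusted p = 0.00076). The proton channel gene Otop3 was lower at 9.17 and 8.70 in control and 6.63 and 6.88 in Pparg-cKO pools (log2 fold change -2.18 ± 0.27, adjusted p = 0.00909), and so were Trpv4, a channel that senses stretch in the urothelium (12.20 and 12.32 in control and 11.22 and 10.97 in Pparg-cKO pools, log2 fold change -1.16 ± 0.12, adjusted p = 0.0053), Lrrc8e (-0.74 ± 0.15) and Ano1 (-0.67 ± 0.12, adjusted p = 0.0934 with the replicate block). Of the sodium channel subunits, Scnn1a was higher (8.85 and 8.83 in control and 9.50 and 9.66 in Pparg-cKO pools, log2 fold change 0.74 ± 0.13, adjusted p = 0.0343, and 0.052 with the replicate block). Scnn1b (-0.28) did not pass the test, nor did Scnn1g (at least 1.12-fold lower), which was not above background in Pparg-cKO pools. Among 10 aquaporins and urea transporters, Aqp3 and Aqp7 were lower, Slc14a2 was higher, and the secretory water channel Aqp5 read 6.76 and 6.66 in control and 8.44 and 8.23 in Pparg-cKO pools (log2 fold change 1.63 ± 0.10, adjusted p = 0.00108).

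Junction genes shifted in selected members. Of 25 claudin and tight junction genes 5 were called higher and none lower, and beside Cldn3 they were Cldn6 (1.67 ± 0.26, adjusted p = 0.0804 with the replicate block), Cldn8 (1.17 ± 0.20, adjusted p = 0.0692 with the replicate block), Cldn9 (0.67 ± 0.14, adjusted p = 0.0831 with the replicate block) and Cldn23 (0.64 ± 0.12, adjusted p = 0.112 with the replicate block). With the replicate block only Cldn3 of these 5 remained. Cldn4 (log2 fold change -0.36 ± 0.12, adjusted p = 0.186) and Tjp1 (log2 fold change 0.10 ± 0.13, adjusted p = 0.797), which most epithelia make, did not pass the test. Of 16 desmosome genes 3 were higher, Dsc1, Dsc2 (12.23 and 11.97 in control and 13.96 and 14.03 in Pparg-cKO pools, log2 fold change 1.90 ± 0.20, adjusted p = 0.0055) and Dsg1c (6.24 and 6.23 in control and 8.26 and 9.72 in Pparg-cKO pools, at least 5.88-fold higher, adjusted p = 0.0187). Pkp1 read 11.23 and 10.90 in control and 12.30 and 13.79 in Pparg-cKO pools (log2 fold change 1.98 ± 0.44, adjusted p = 0.0654), again highest in the female mutant pool. Among 7 cadherins, Cdh16, Cdh6 (1.34 ± 0.25, adjusted p = 0.105 with the replicate block) and Cdh13 (0.96 ± 0.17, adjusted p = 0.107 with the replicate block) were higher, all 3 only without the block, and Cdh1 read 14.06 and 13.85 in control and 13.95 and 14.09 in Pparg-cKO pools. Of 13 connexins, Gjb2 (1.29 ± 0.21, adjusted p = 0.0955 with the replicate block) was higher.

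Of 14 genes of basal cells and their matrix anchors, 1 was called higher without the block, and Col7a1 (1.07 ± 0.34) only with it (adjusted p = 0.0464). Trp63, the regulator of basal and intermediate cells, read 14.16 and 14.15 in control and 13.54 and 13.75 in Pparg-cKO pools (log2 fold change -0.51 ± 0.12, adjusted p = 0.0789). Proliferation genes were higher in both pairs for 31 of 40 and lower in both for none (27.1% and 28.3% of all genes), with a median of 0.47 (male pair 0.13, female pair 0.80), but 1 passed the test, Foxm1 (0.77 ± 0.16, adjusted p = 0.124 with the replicate block). Mki67 read 13.25 and 13.19 in control and 13.21 and 13.93 in Pparg-cKO pools (log2 fold change 0.35 ± 0.23, adjusted p = 0.568); the male mutant pool lay at the level of the control pools for it.

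Mucosal secretory and antimicrobial genes moved both ways, with 7 of 30 called higher and 2 lower. Bpifb1, a secreted protein of airway and other mucosae, read 13.37 and 12 in control and 8.66 and 9.39 in Pparg-cKO pools (log2 fold change -3.66 ± 0.49, adjusted p = 0.0118, and 0.0544 with the replicate block). Clca1, a secreted regulator of chloride conductance in goblet cells, read 11.59 and 12.19 in control and 13.997 and 15.17 in Pparg-cKO pools (log2 fold change 2.69 ± 0.39, adjusted p = 0.0154). Agr2, which folds mucins, read 8.72 and 8.61 in control and 10.56 and 10.53 in Pparg-cKO pools (log2 fold change 1.88 ± 0.12, adjusted p = 0.00122). Reg1, a secreted lectin, read 9.18 and 8.97 in control and 10.91 and 10.65 in Pparg-cKO pools (log2 fold change 1.71 ± 0.16, adjusted p = 0.00393). Pglyrp1, which binds bacterial walls, read 7.83 and 6.84 in control and 9.76 and 10.42 in Pparg-cKO pools (log2 fold change 2.76 ± 0.35, adjusted p = 0.0101, and 0.0537 with the replicate block). The gel-forming Muc5ac and Muc5b and the trefoil genes Tff2 and Tff3 were not above background.

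The female Pparg-cKO pool stood apart from the male one for a small set of genes. S100a9, a calprotectin subunit of neutrophils and of stressed epithelium, read 8.79 and 6.16 in control and 7.66 and 14.87 in Pparg-cKO pools (log2 fold change 3.79 ± 2.20, adjusted p = 0.5). S100a8 read 9.17 and 7.36 in control and 7.76 and 13.33 in Pparg-cKO pools. Ltf, lactoferrin, read 6.92 and 6.26 in control and 7.77 and 11.83 in Pparg-cKO pools. Chil4 read 9.23 and 8.43 in control and 7.68 and 13.42 in Pparg-cKO pools. Lor, loricrin of the cornified envelope, read 8.95 and 8.85 in control and 9.94 and 15.69 in Pparg-cKO pools (log2 fold change 3.92 ± 1.58, adjusted p = 0.294). Krt1, a keratin of the epidermis, read 7.78 and 7.43 in control and 7.25 and 14.46 in Pparg-cKO pools (log2 fold change 3.25 ± 2.03, adjusted p = 0.54). All 6 genes were singled out after their values were seen. In all, 70 genes differed at least 4-fold between the Pparg-cKO pools and 22 between the control pools, whereas at least 2-fold differences were fewer, 216 against 322, and the median SD of the 2 pools was smaller, 0.088 against 0.122.

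All WNT genes that passed the test were higher. Of 13 ligands 5 were called higher and none lower. Wnt4 read 13.52 and 13.59 in control and 14.27 and 14.31 in Pparg-cKO pools (log2 fold change 0.73 ± 0.12, adjusted p = 0.0213). Wnt6 read 10.13 and 10.07 in control and 10.84 and 10.77 in Pparg-cKO pools (log2 fold change 0.71 ± 0.13, adjusted p = 0.0366). Wnt9b, which signals to nephron progenitors, was not above background in control pools (6.42 and 6.25 in control and 7.96 and 8.02 in Pparg-cKO pools, at least 2.9-fold higher, adjusted p = 0.00167). Wnt10a was higher by 1.11 ± 0.23 (0.149 as the adjusted p with the replicate block) and Wnt16 was at least 1.48-fold higher, adjusted p = 0.021. Of 27 target and feedback genes 7 were higher and none lower. Their median was 0.40 (male pair 0.38, female pair 0.22). Sostdc1, an inhibitor of WNT and BMP signals, read 7.70 and 7.63 in control and 9.08 and 9.95 in Pparg-cKO pools (log2 fold change 1.85 ± 0.36, adjusted p = 0.0421). Sfrp2 read 14.47 and 14.47 in control and 15.23 and 15.53 in Pparg-cKO pools (log2 fold change 0.91 ± 0.14, adjusted p = 0.0168), and Tnfrsf19 (0.84 ± 0.13, adjusted p = 0.0715 with the replicate block) and Rnf43 (0.76 ± 0.14, adjusted p = 0.0749 with the replicate block) were higher. Axin2, the usual readout of the pathway, read 9.71 and 9.82 in control and 10.54 and 10.33 in Pparg-cKO pools (log2 fold change 0.67 ± 0.13, adjusted p = 0.0416, and 0.13 with the replicate block). Lgr5 read 10.86 and 10.91 in control and 12.03 and 11.84 in Pparg-cKO pools (log2 fold change 1.05 ± 0.29, adjusted p = 0.12, and 0.0304 with the replicate block), and Lef1 (0.11) and Sp5 (0.15) were near 0. With the block 3 of the 27 targets and 4 of the ligands were higher.

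Of 19 Hox A and B genes, Hoxb9 was higher (12.09 and 12.06 in control and 13.10 and 13.05 in Pparg-cKO pools, log2 fold change 1.0 ± 0.11, adjusted p = 0.00687), and 11 were higher in both pairs, as were 27.1% of all genes. Of 16 Hox C and D genes none passed the test (limma, with 4 above and 2 below 0 at an unadjusted p under 0.05), although Hoxd3 read 10.35 and 10.70 in control and 12.53 and 11.76 in Pparg-cKO pools (log2 fold change 1.62 ± 0.36, adjusted p = 0.0654). Among 14 EGF family genes, the ligand Nrg4 was not above background in mutant pools (8.09 and 7.88 in control and 6.26 and 6.32 in Pparg-cKO pools, at least 2.89-fold lower, adjusted p = 0.00476). Of 24 FGF ligands and receptors, Fgfr4 (0.79 ± 0.12) and Fgf12 (0.84 ± 0.13, adjusted p = 0.0779 with the replicate block) were higher and Fgfrl1 (-0.61 ± 0.12, adjusted p = 0.146 with the replicate block) was lower, and Klb, the co-receptor for FGF21 in fat, read 9.86 and 10.57 in control and 8.0 and 7.97 in Pparg-cKO pools (log2 fold change -2.23 ± 0.59, adjusted p = 0.11). None of 21 TGF-beta and BMP ligands passed the test (limma, with 4 above and 3 below 0 at an unadjusted p under 0.05).

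Cells outside the epithelium differed by type. Fat cell markers had the lowest median of all lists, -1.59 (male pair -1.35, female pair -1.78). Of 24, 22 were lower in both pairs, as were 28.3% of all genes. Of the 24, 5 passed the test, Lipe (-1.71 ± 0.32, adjusted p = 0.0882 with the replicate block), Aqp7 (-1.59 ± 0.27, adjusted p = 0.0736 with the replicate block), Hcar1, Cidea (-1.47 ± 0.29, adjusted p = 0.0673 with the replicate block) and Pnpla2 (-0.95 ± 0.19, adjusted p = 0.152 with the replicate block), and with the block 1 did, Hcar1 (9.47 and 9.96 in control and 8.14 and 8.23 in Pparg-cKO pools, log2 fold change -1.53 ± 0.21, adjusted p = 0.0121). The lipid droplet gene Cidec read 14.63 and 14.98 in control and 12.66 and 12.53 in Pparg-cKO pools (log2 fold change -2.21 ± 1.07, adjusted p = 0.398). The hormone gene Adipoq read 15.54 and 16.05 in control and 14.43 and 13.97 in Pparg-cKO pools (log2 fold change -1.60 ± 0.88, adjusted p = 0.472). Fabp4 read 16.31 and 16.57 in control and 15.76 and 15.46 in Pparg-cKO pools (log2 fold change -0.83 ± 0.60, adjusted p = 0.607). The summed intensity of the list was 19.14 and 19.67 in control and 18.57 and 18.25 in Pparg-cKO pools, and Lpl, which muscle and other cells make too, gave the brightest probe. The part of fat tissue in the lower metabolic and plasma protein genes above was not tested.

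Smooth muscle genes had a median of 0.00 (male pair 0.22, female pair -0.23), and none of 20 passed the test. Nor did any of 23 fibroblast and matrix genes (median 0.02), 22 Schwann cell and neuron genes (median -0.33), 14 skeletal and cardiac muscle genes (median -0.16) or 9 MHC class II genes (median 0.27, but -0.09 without control replicate 2). At an unadjusted p under 0.05 limma gave 4 higher and 9 lower genes over these 5 lists. Of 25 endothelial genes, Kdr, the VEGF receptor, was higher (10.96 and 10.47 in control and 11.68 and 11.51 in Pparg-cKO pools, log2 fold change 0.88 ± 0.16, adjusted p = 0.0351), as was Ramp3 (1.13 ± 0.20, adjusted p = 0.0777 with the replicate block). The list's median was 0.54 (male pair 0.23, female pair 0.74), and 19 were higher in both pairs, as were 27.1% of all genes. Of 22 leukocyte genes, Cd3e (-0.67 ± 0.14, adjusted p = 0.0825 with the replicate block) was lower, and the macrophage genes Csf1r (0.10) and Adgre1 (-0.09) were near 0. Of 29 interferon response genes, Samd9l (0.75 ± 0.12, adjusted p = 0.0545 with the replicate block) was higher.

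**Figure D5:**
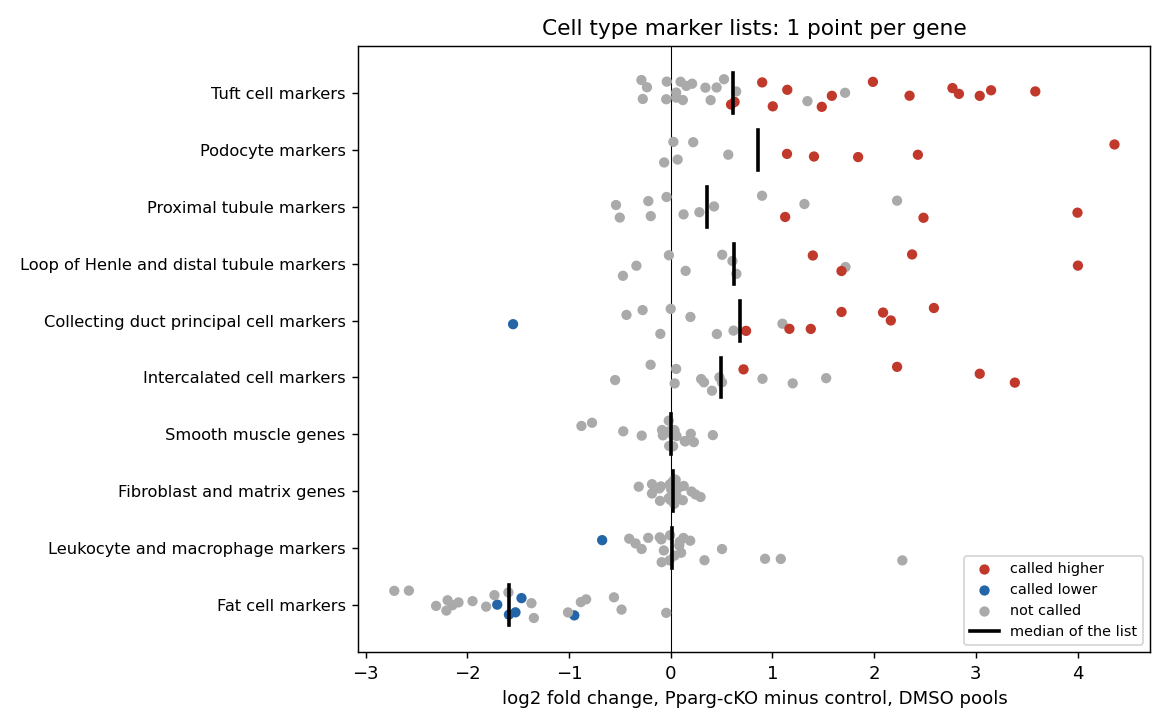
log2 fold change of Pparg-cKO against control DMSO pools (x axis) for each gene (point) of 10 cell type marker lists (y axis), red where called higher, blue where called lower and grey where not called; black bars are list medians. Tuft and kidney lists spread to the right, fat cell markers lie to the left with a median of -1.59, and smooth muscle and fibroblast genes have medians near 0.

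In the windows that RefSeq annotation gives as promoters (GRCm38.p6, 250 bases before to 50 after a transcript start), the letters that PPARG and RXR bind as a direct repeat, 2 copies of AGGTCA in the same direction with 1 base between them, were searched on both strands. Exact copies lay in 0.0481% of 27025 genes with a window, and copies with up to 1 mismatch in 0.644%. Of the 123 named genes, 77 had a window. None of the 27 named genes with a window that were lower held the letters, and of the 49 that were higher, 1 did, with 1 mismatch: Pdzk1. Its match lies in a window on chromosome 3, and is shown in capitals, on the strand of the gene, at chr3:96830000-96830028.
Pdzk1 promoter: ccgggagcAGGACAGAGGTCActtgaact
Among all genes called lower, 0 of 257 with a window held a match, and among those called higher 1 of 267. A match is a description of letters, and its absence says nothing of binding.

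The genotype difference in DMSO was also compared with that in purmorphamine, as an interaction in the same fit. No gene passed an adjusted p of 0.05 (limma), and 581 of 20229 genes had an unadjusted p under 0.05. This is fewer than that threshold would give if no gene had an interaction. With 2 pools a group, the absence of calls does not show that the genotype differences were equal.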

How the data were processed

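RNA of sex-sorted pools of cultured ureters was hybridised to 4 two-colour Agilent arrays on one slide. The authors deposited scanner output of Feature Extraction 12.2.0.7, and the mean and background intensity of each channel was used from it. Their fold change columns were not used. In R 4.3.3 with limma 3.58.1, intensities were background corrected (normexp, offset 50), normalised within arrays (loess) and between arrays (Aquantile), and the 4 spots of a probe were averaged. A probe was tested if more than 0.5 of its spots passed the scanner's background test in each pool of some group, purmorphamine groups included. A gene could thus be tested through 1 genotype alone. Of the called genes, 69 that were higher were above background in neither control DMSO pool. Likewise, 27 that were lower were above it in neither Pparg-cKO DMSO pool. A gene was represented by its brightest tested probe. All 8 channels were fitted as separate channels (intraspot correlation 0.0633, 4 residual degrees of freedom), with Benjamini-Hochberg adjustment over 20229 genes and a threshold of 0.05. Where a genotype was below background in both pools, a lower bound of the fold is given. The scripts were tested on simulated data. Labels pair the replicate numbers by sex and dye; over genes, the female minus male differences of the genotypes correlated at r = -0.15. Named genes were Pparg, Shh, the 12 largest called increases and decreases outside the keratin, Sprr and uroplakin families and lipid terms, and up to 4 called members of each of 51 lists, with members not called given as values; a few genes that these rules would name are not reported here. The members and lists were chosen with earlier results of these data known. Probe coordinates are those of the files, in mm9; promoter windows are of GRCm38.p6, and the builds were not mixed. The number of arrays limits the precision.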

Additional observations from a re-analysis of the deposited data

Results flagged for a closer look

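The male and female pairs pointed opposite ways for the medians of 10 of 51 gene lists and for 5 list members reported here that differed at least 2-fold in each pair. With 1 pool of each genotype and sex, the difference between the pairs was not tested, and sex, dye and replicate number cannot be told apart. Values are log2 differences, Pparg-cKO minus control, in the male and then the female pair. S100a9 gave -1.14 and 8.71, and S100a8 gave -1.42 and 5.97. Chil4, a chitinase-like protein, gave -1.56 and 4.98, and Slpi, a secreted protease inhibitor, gave -1.43 and 2.39. Gstm6, a glutathione transferase, gave -1.22 and 1.02.

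Among the lists, the median of mucosal secretory and antimicrobial genes was -0.19 and 0.80. Skeletal and cardiac muscle genes gave 0.049 and -0.50, and smooth muscle genes 0.22 and -0.23. Leukocyte and macrophage markers gave -0.15 and 0.20, clade B serpins -0.073 and 0.18, cytochrome P450 genes -0.052 and 0.16, and aquaporins and urea transporters -0.027 and 0.17. FGF ligands and receptors gave 0.16 and -0.11, glycolysis genes -0.12 and 0.023, and fibroblast and matrix genes 0.090 and -0.016.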

How the results depend on the processing

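The 799 called genes kept their sign wherever an alternative gave a value, except for 3 with the processed signals of the scanner software. The replicate block, the DMSO channels alone and the crossed replicate numbers give the same fold changes as the main fit. The sign could not turn in those fits, so they are no test of it. With the replicate block, 278 genes were higher and 237 lower. With the DMSO channels alone and the block, the counts were 65 and 59. With crossed replicate numbers, an alternative chosen after seeing the data, they were 214 and 261. Without normalization between arrays 341 were higher and 719 lower, and the median of all genes was -0.15. Processed signals gave 280 and 216, and the requirement of a signal well above background in all 4 DMSO pools gave 258 and 299 among 18864 genes. Leaving out 1 array at a time, with the intraspot correlation of the full fit held, gave between 35 and 272 genes higher and between 17 and 161 lower; the lone pool is then assumed to vary like the other groups. The cause of these differences was not tested, other than that fewer arrays or genes entered some of the fits. The settings without background correction, with quantile normalization, without a filter on dim probes and with the mean of a gene's probes kept both counts within 1.5 times of 410 and 389. Of 51 list medians, 34 kept their sign in all 14 alternatives and 17 did not. The 14 include the block, DMSO-only and crossed-number fits, in which no median could move. The medians of 11 lists stayed within 1.5 times throughout, among them those of superficial, tuft, fat, podocyte and principal cell genes. The median was between -0.53 and -0.04 for hedgehog targets, 0.05 and 0.72 for the proximal tubule, 0.15 and 1.13 for the loop and distal tubule, 0.19 and 0.73 for proliferation genes, 0.16 and 0.55 for WNT ligands, 0.20 and 0.45 for WNT targets, -0.98 and -0.59 for plasma proteins, -0.64 and -0.09 for Schwann cells and neurons, and -0.39 and -0.06 for skeletal muscle. That of MHC class II genes was 0.72 without control replicate 1 and -0.09 without control replicate 2. Medians near 0, such as those of glycolysis, smooth muscle, fibroblast and P450 genes, changed sign. Without control replicate 2, 51 of 102 list counts moved by over 1.5 times.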
